A study of Mus musculus with 6 samples.

Results

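The genes described here encode collagens, laminins, matrix metalloproteases (MMPs), tissue inhibitors of metalloproteases (TIMPs), ADAM proteases, and ADAMTS proteases with their ADAMTSL relatives. They were taken by symbol from the array annotation, which gave 122 genes on 225 probe sets, of 18193 genes named on the array. The families held 42 collagens, 10 laminins, 18 MMPs, 4 TIMPs, 28 ADAMs and 20 ADAMTS or ADAMTSL genes. Each gene was read from its brightest probe set, the one with the highest mean log2 signal over the 6 arrays.

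Megakaryocyte progenitors (MkP), the cells that give rise to platelet-forming megakaryocytes, came from wild-type mice of strain C57BL/6, either from bone marrow at an age of 12 to 18 weeks (3 arrays) or from fetal liver at E13.5 (3 arrays). In both tissues the cells had been flow sorted as negative for lineage markers and Sca-1 and positive for c-kit, CD150 and CD41. The samples are labelled as biological replicates without a number of animals or embryos per sample, so p-values measure the spread between these samples. Values are MAS5 signals, a linear intensity per probe set. Each array carries 27 probe sets for bacterial transcripts, and their highest signal, 22.2 to 35.1 depending on the array, served as its background. All 9 MkP markers with a named probe set were above background on all 6 arrays, and 0 of the 9 were past the threshold between the tissues.

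Fibrillar collagens form the tensile fibres of connective tissue, and collagen IV and laminins form the sheets of basement membranes on which marrow sinusoids rest. MMPs and ADAMTS enzymes cut secreted matrix, ADAMs shed membrane proteins from the cell surface, and TIMPs block their zinc-containing active sites. Megakaryocytes meet collagen and laminin in the marrow, secrete some matrix proteins themselves, and their platelets lose surface receptors through ADAM10 and ADAM17.

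The promoters of 5 members on which the results below turn are given from RefSeq (GRCm38.p6), because the inhibitors Timp3 and Timp2 had their higher mean signals in opposite tissues, Adamts1 and Col1a2 were higher in all fetal liver arrays and Adam22 in all marrow arrays. Each runs 5′ to 3′ over the 250 bases before the gene's start. Capitals mark matches, on either strand, to 5 motifs. They are GATAA, for the factors that drive megakaryocyte and erythroid genes, TGAGTCA, for AP-1, the letters TATAAA of the core promoter box, the GC box GGGCGG bound by SP1, and finally GGAAGT, which factors of the ETS family bind.
Timp3, chr10:86300162-86300411, plus strand: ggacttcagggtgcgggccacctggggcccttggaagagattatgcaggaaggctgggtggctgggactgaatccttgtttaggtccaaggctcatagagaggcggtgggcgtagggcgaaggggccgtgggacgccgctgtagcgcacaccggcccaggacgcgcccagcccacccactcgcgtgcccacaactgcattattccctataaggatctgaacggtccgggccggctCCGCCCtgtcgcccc
Timp2, chr11:118355412-118355661, minus strand: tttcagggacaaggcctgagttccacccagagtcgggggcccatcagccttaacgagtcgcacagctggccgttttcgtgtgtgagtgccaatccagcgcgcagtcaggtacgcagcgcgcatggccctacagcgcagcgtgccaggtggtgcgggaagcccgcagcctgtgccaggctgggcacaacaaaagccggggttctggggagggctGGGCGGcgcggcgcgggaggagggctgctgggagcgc
Adamts1, chr16:85803114-85803363, minus strand: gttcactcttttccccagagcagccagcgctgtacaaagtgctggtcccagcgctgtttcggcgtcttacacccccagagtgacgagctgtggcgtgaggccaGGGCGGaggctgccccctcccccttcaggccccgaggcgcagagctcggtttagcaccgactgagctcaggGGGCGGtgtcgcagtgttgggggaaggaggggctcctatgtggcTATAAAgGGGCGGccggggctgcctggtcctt
Col1a2, chr6:4505368-4505617, plus strand: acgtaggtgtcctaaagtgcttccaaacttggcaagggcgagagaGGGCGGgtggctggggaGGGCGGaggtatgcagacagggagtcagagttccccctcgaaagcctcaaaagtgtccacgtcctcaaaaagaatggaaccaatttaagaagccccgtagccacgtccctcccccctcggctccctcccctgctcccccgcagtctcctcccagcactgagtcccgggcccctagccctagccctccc
Adam22, chr5:8368161-8368410, minus strand: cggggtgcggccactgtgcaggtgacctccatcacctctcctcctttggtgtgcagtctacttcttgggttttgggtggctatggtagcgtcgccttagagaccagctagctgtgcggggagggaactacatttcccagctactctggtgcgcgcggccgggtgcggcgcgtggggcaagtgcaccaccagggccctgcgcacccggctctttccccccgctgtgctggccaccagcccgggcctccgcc
The Timp3 and Timp2 windows each held 1 GC box match, the Col1a2 window 2, and the Adamts1 window 3 with 1 TATA box match. The Adam22 window held no match to these letters. Of the 122 genes 79 had a promoter in the table. A GC box match stood in 41 of these 79 (51.9%), against 32.9% of the promoters of 27025 genes. GATAA stood in 10 of the 79 (12.7%), against 23.0% of all, TGAGTCA in 7 (8.86% against 4.43%), TATAAA in 16 (20.3% against 13.0%) and GGAAGT in 21 (26.6% against 20.0%). The median GC content of the windows was 58.8% for the members and 52% for all genes, and its part in these shares was not tested. These are matches of letters and say nothing of binding.

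Most of these genes gave little signal in MkP of either tissue. On all 6 arrays 20 of the 122 (16.4%) were above background, against 54.0% of all named genes, and 38 (31.1%) were above it on no array, against 17.2%. The 20 were the collagen genes Col5a1, Col1a2, Col4a1, Col18a1, Col20a1, Col1a1 and Col7a1, the laminin chain Lamc1, Mmp24, the inhibitors Timp3 and Timp2, the ADAM genes Adam10, Adam17, Adam9, Adam15 and Adam28, and Adamts10, Adamts3, Adamtsl5 and Adamts6. The 38 included the collagen VI chains Col6a1, Col6a2 and Col6a3, Lama3, Lamb3, Lamc3, Mmp12, Mmp13, Timp1, Timp4 and Adamts4. By array, 50, 48 and 56 of the 122 were above background in bone marrow replicates 1, 2 and 3, and 42, 42 and 37 in fetal liver replicates 1, 2 and 3. Of all named genes, 66.2%, 68% and 72.3% were above background on the same marrow arrays and 64.5%, 68% and 65.1% on those of fetal liver. The marrow arrays were all higher in the count of the 122 genes (exact permutation p = 0.1, two-sided, the smallest possible for 3 against 3). The shares of all named genes overlapped between the tissues. The median signal of all probe sets was also higher in marrow, at 76.9 ± 3.06 (SD, n = 3) against 64.2 ± 1.34. Its part in the count of the 122 genes was not tested.

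**Figure D1:**
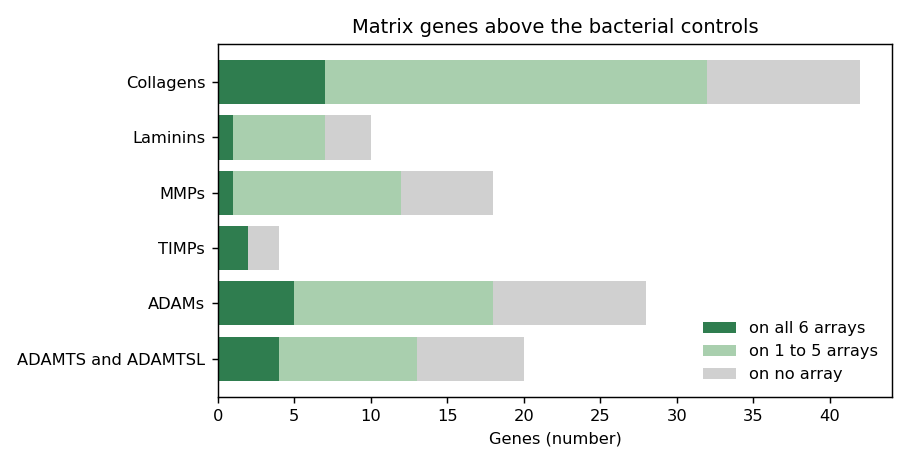
Number of genes per family (x axis) whose brightest probe set exceeded the highest bacterial control on all 6 arrays, on 1 to 5 arrays or on no array. Collagens were the largest family with 42 genes, of which 7 were above background on all 6 arrays.

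The tissues were compared with limma on log2(signal + 2.87), a scale that understates changes of dim genes, with Benjamini-Hochberg adjustment over the 11625 genes whose mean log2 signal passed a filter on dim probe sets, and 0.05 as the threshold. Of the 122 genes 38 passed that filter. Adam22 and Mmp9 were past the threshold, 2 of 38 beside 7.77% of all genes tested; both were higher in marrow, beside 4.76% of all genes in that direction. In the other direction the count was 0 of 38, beside 3.01% of all genes. At an unadjusted limma p under 0.05, 5 of the 38 were higher in fetal liver, beside 10.7% of all genes tested. In marrow 9 of the 38 were higher at that level, beside 12.1% of all. The 0 past the adjusted threshold in fetal liver became 3 under quantile normalization and 4 under median centring. It was 2 with the mean of each gene's probe sets and without bone marrow replicate 1. The 2 higher in marrow became 1 without bone marrow replicate 2, bone marrow replicate 3, fetal liver replicate 2 or fetal liver replicate 3. The shares of the 38 past the adjusted threshold were near or below those of all genes. The share of the 38 higher in marrow at an unadjusted p under 0.05 was above that of all genes. The median change of the 38 was -0.047 on the log2 scale, fetal liver minus marrow, and 0.0065 over all genes tested. The median of the 38 was -0.44 without bone marrow replicate 2. It became 0.039 under quantile normalization and 0.20 under median centring, when that of all genes was 0.091 and 0.26. In 7 of the 38 the 3 fetal liver signals all lay above the 3 marrow signals (13.8% of all genes tested), and in 8 the marrow signals all lay above those of fetal liver (14.2% of all).

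**Figure D2:**
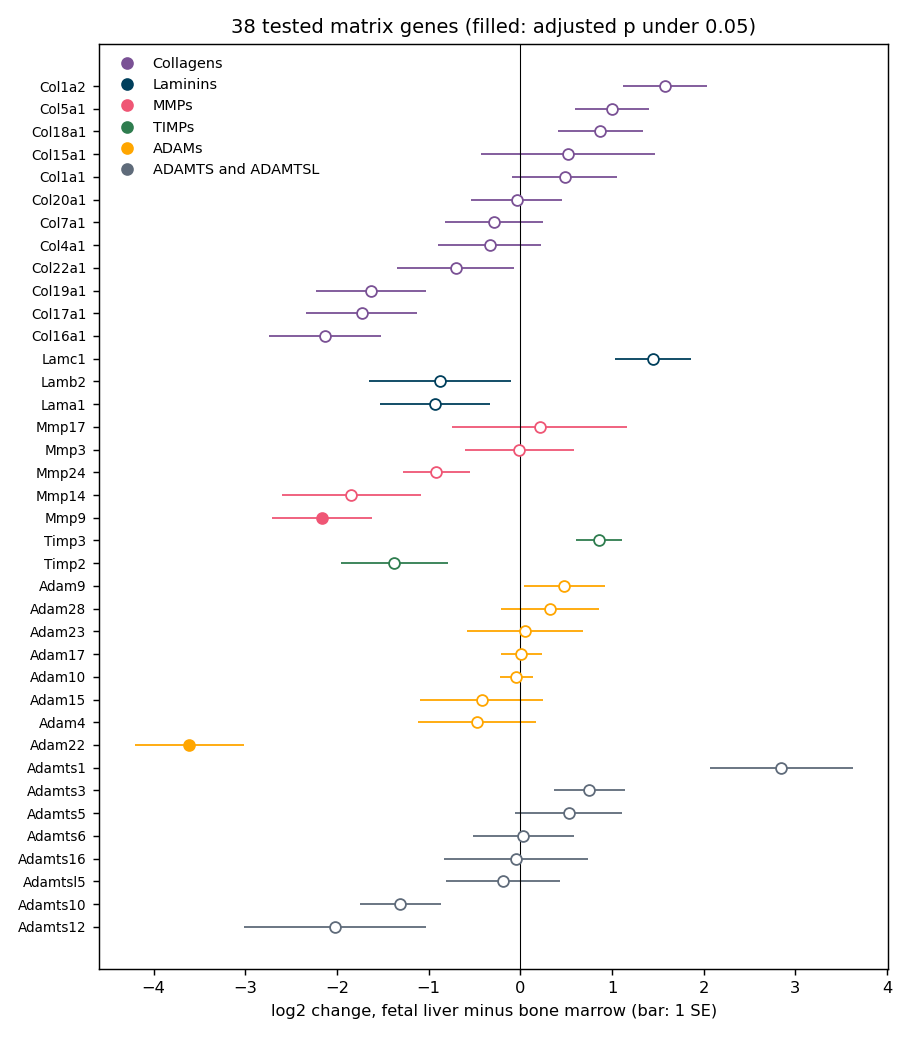
Log2 change, fetal liver minus bone marrow, of the 38 tested genes (points) with 1 standard error (bars), ordered by family and size; 3 arrays per tissue. Filled points, past an adjusted p of 0.05, are Adam22 at -3.61 and Mmp9 at -2.16.

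Among the sheddases, the broadly acting ADAM10 and ADAM17 were measured well above background in both tissues, with overlapping values. ADAM10 cleaves Notch receptors and the platelet collagen receptor GPVI. Adam10 had signals of 5125, 4198 and 3778 in marrow replicates 1 to 3 and 4274, 4197 and 4126 in fetal liver. The change was -0.045 ± 0.18 (log2, SE), with a 95% interval from -0.44 to 0.35 (limma adjusted p = 0.922), and its sign turned to 0.21 under median centring. Its other 3 probe sets overlapped between the tissues as well. ADAM17, the convertase of TNF, also sheds the platelet receptor GPIbα. Adam17 had signals of 1807, 1449 and 1862 in marrow and 2028, 1603 and 1529 in fetal liver, a change of 0.0091 ± 0.22 with an interval from -0.49 to 0.51 (limma adjusted p = 0.988), which became -0.023 under quantile normalization. Differences within these intervals were not detectable with 3 arrays per tissue.

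Adam22 was the member with the lowest adjusted p. It encodes an ADAM without protease activity, known as the neuronal receptor of LGI1. Its signals were 319, 373 and 256 in marrow and 45.7, 26.5 and 9.22 in fetal liver, where 1 of 3 arrays exceeded background. All marrow signals lay far above those of fetal liver. It fell by 3.61 ± 0.59 in fetal liver (log2, SE, limma adjusted p = 0.0053), and the call stood in all 17 alternatives that tested it (adjusted p 0.0014 to 0.0205). A further probe set, 1435293_at, had signals of 77.3, 145 and 155 in marrow and 67.1, 37.9 and 68.7 in fetal liver. That probe set had the same direction and a smaller change, -1.07 ± 0.55 (adjusted p = 0.319 over all kept probe sets).

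The other tested ADAM genes overlapped between the tissues. Adam9, a membrane-anchored metalloprotease, had signals of 484, 172 and 358 in marrow and 582, 383 and 366 in fetal liver (limma adjusted p = 0.577). For Adam15 they were 131, 97.4 and 430 in marrow and 64.6, 251 and 138 in fetal liver, so that within each tissue the arrays differed more than the tissues did. Adam28 was near background, at 36.7 to 44.2 in marrow and 42.4 to 73.7 in fetal liver. Of the ADAM genes that the filter removed, Adam11 and Adam6b, chosen here after their values were seen, had all fetal liver signals above those of marrow. On its brightest probe set Adam11 had signals of 12.3, 6.76 and 15.1 in marrow and 25.2, 54.3 and 62.0 in fetal liver. That probe set was above background on 2 fetal liver arrays and at least 1.56-fold higher there. The other Adam11 probe set, 1450248_at, had the opposite direction with overlap, at 29.3, 35.8 and 1.67 in marrow and 3.78, 3.04 and 0.97 in fetal liver. It exceeded background on 1 array, of marrow. Adam6b was below background on all 6 arrays.

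Of 18 MMPs 5 were tested, and Mmp9, Mmp24 and Mmp14 had all 3 marrow signals above those of fetal liver. MMP9, or gelatinase B, cleaves denatured collagen and collagen IV and is stored in granules of neutrophils. Mmp9 had signals of 100.2, 116 and 157 in marrow and 39.7, 17.0 and 22.8 in fetal liver, where 1 of 3 arrays exceeded background. The groups did not overlap. It fell by 2.16 ± 0.55 in fetal liver (SE, limma adjusted p = 0.0395; 0.00678 to 0.152 over all alternatives). The call was lost without bone marrow replicates 1, 2 and 3 (adjusted p = 0.0683, 0.0772 and 0.099), without fetal liver replicates 2 and 3 (0.152 and 0.132) under quantile normalization (0.0583) and with no filter (0.0765). Its other probe set, 1416298_at, had signals of 105, 544 and 132 in marrow and 3.43, 4.64 and 13.54 in fetal liver, all below background there and at least 6.09-fold lower (adjusted p = 0.0082 over all kept probe sets). In that limma fit the brightest Mmp9 probe set was not past the threshold (adjusted p = 0.0573). The collagenase Mmp8, also a neutrophil granule enzyme, had signals of 51.2, 16.7 and 144 in marrow and 1.20, 5.94 and 1.30 in fetal liver. Mmp8 did not pass the filter, and was past the threshold in a fit with no filter (adjusted p = 0.0424).

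Markers of granulocytes and monocytes moved with these MMPs. Of 11 such markers with a named probe set 9 were tested and all 9 were past the threshold, higher in marrow. Their summed signal was 38454 to 51753 in marrow and 3206 to 5305 in fetal liver, and 5 of the 11 were above background on no fetal liver array (Chil3, Csf3r, Fcnb, Lcn2 and Ltf). Mpo stayed above background on all 6 arrays. The sort removed lineage-positive cells, and in bulk samples fewer cells of a type and less RNA per cell cannot be told apart. The part of such cells in the Mmp9 and Mmp8 signals was not tested.

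Mmp24, a membrane-type MMP, had signals of 538, 432 and 449 in marrow and 207, 352 and 209 in fetal liver. All marrow values were higher, and the change of -0.92 ± 0.37 was not past the threshold (limma adjusted p = 0.166); a dimmer probe set, 1417678_at, differed by -0.047 ± 0.57. MMP14 activates the zymogen of MMP2 at the cell surface. Mmp14 had signals of 50.1, 105 and 69.4 in marrow and 3.84, 32.5 and 34.7 in fetal liver, without overlap (limma adjusted p = 0.178). A further kept probe set, 1416572_at, had the same direction with overlap. Its signals were 24.1, 87.9 and 86.9 in marrow and 5.89, 26.5 and 29.4 in fetal liver. Mmp17, a GPI-anchored MMP, ranged from 24.0 to 384 within marrow and from 35.9 to 218 in fetal liver. Mmp23 had signals of 59.2, 119 and 88.8 in marrow and 1.35, 11.5 and 2.23 in fetal liver, above background on all 3 marrow arrays and no fetal liver array. It was at least 2.70-fold higher in marrow, a bound that sets the marrow mean against the control signals of the fetal liver arrays. A further Mmp23 probe set, 1417281_a_at, had signals of 7.09, 151 and 140 in marrow and 2.15, 4.57 and 1.80 in fetal liver. That probe set was above background on 2 arrays, both of marrow, and at least 1.84-fold higher there. Mmp23 did not pass the filter and was past the threshold without it (adjusted p = 0.0147).

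The TIMP genes Timp3 and Timp2 differed in direction. TIMP3 binds to the matrix and inhibits ADAM17 and several ADAMTS enzymes besides MMPs. The brightest Timp3 probe set had signals of 2984, 1649 and 2140 in marrow and 4940, 3629 and 3475 in fetal liver, a change of 0.85 ± 0.25 that missed the threshold (log2, SE, limma adjusted p = 0.0676; 0.00439 to 0.18 over all alternatives). It was past it under median centring (0.0191), after averaging of its probe sets (0.00439) and without bone marrow replicate 1 (0.0343). All 4 Timp3 probe sets separated the tissues without overlap. On 1419089_at the signals were 770, 1209 and 653 in marrow and 2316, 2550 and 2972 in fetal liver. With every kept probe set tested on its own, a choice made after seeing the data, that probe set rose by 1.61 ± 0.27 (adjusted p = 0.00771) and 1449335_at by 1.52 ± 0.30 (adjusted p = 0.0157). In that fit 3 of the 63 member probe sets kept were higher in fetal liver, from Timp3 and Lamc1, beside 1.78% of all probe sets, and 2 were higher in marrow, from Adam22 and Mmp9, beside 3.28% of all.

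TIMP2 inhibits MMPs and also takes part in the activation of MMP2 by MMP14. The brightest Timp2 probe set had signals of 322, 337 and 187 in marrow and 233, 50.1 and 93.6 in fetal liver. Fetal liver replicate 1 lay within the marrow range, so the groups overlapped, and the change was -1.37 ± 0.58 (limma adjusted p = 0.189). All 6 Timp2 probe sets had a lower mean log2 signal in fetal liver, 4 of them without overlap. On 1450040_at the signals were 508, 166 and 396 in marrow and 165, 3.81 and 28.7 in fetal liver, with a change of -3.31 ± 0.99 (adjusted p = 0.0858 over all kept probe sets). Of these 6 the filter kept 4, whose adjusted p over all kept probe sets was 0.0858 to 0.219; the opposite directions of Timp3 and Timp2 were not tested against each other. Timp1 and Timp4 were below background on all 6 arrays.

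**Figure D3:**
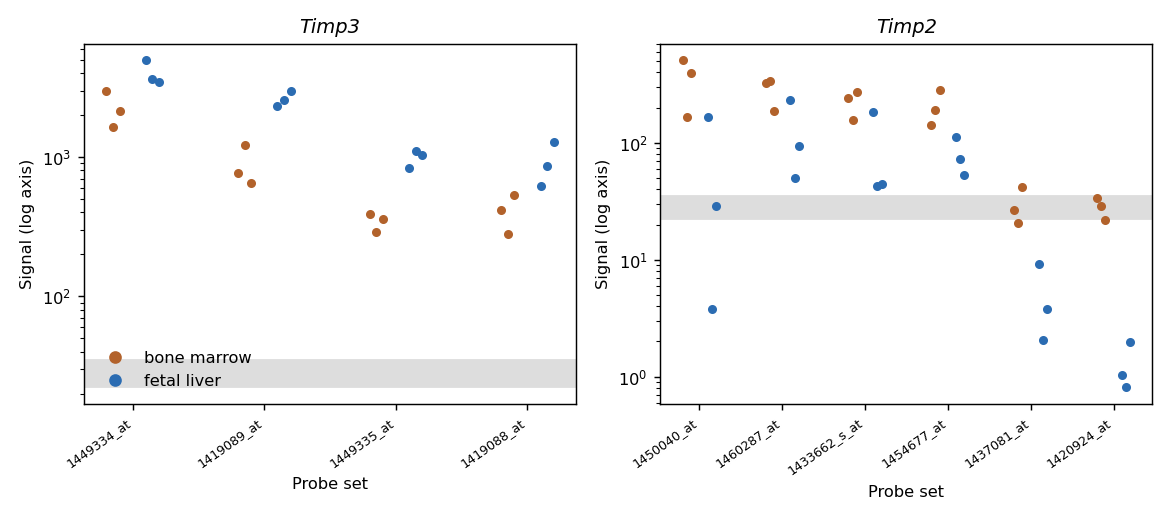
Signal (log axis) on each array for every probe set of Timp3 (left, 4 probe sets) and Timp2 (right, 6 probe sets), with 3 points per tissue; the grey band spans the highest control signals, 22.2 to 35.1. All 4 Timp3 probe sets lie higher in fetal liver, and the Timp2 probe sets lie lower there, with overlap on 1460287_at and 1433662_s_at.

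Among laminins, which are trimers of an alpha, a beta and a gamma chain, the gamma chain Lamc1 was the member above background on all arrays. Lamc1 is shared by most laminins. Its signals were 294, 163 and 202 in marrow and 422, 514 and 935 in fetal liver, where every array was higher. The change was 1.45 ± 0.42 (SE, limma adjusted p = 0.0603; 0.0149 to 0.279 over all alternatives). It was past the threshold under quantile normalization (0.0409), median centring (0.0267) and averaging of its probe sets (0.0149). Its second probe set, 1423886_at, had signals of 169, 204 and 121 in marrow and 465, 495 and 502 in fetal liver and rose by 1.58 ± 0.38 (adjusted p = 0.0378 over all kept probe sets). Of the partner chains Lama1 and Lamb2 were tested, each above background on 4 of the 6 arrays. The other laminin chains exceeded it on at most 2 arrays. Lama1 ranged from 33.6 to 72.3 in marrow and from 16.2 to 36.2 in fetal liver, and Lamb2 from 22.6 to 113 and from 9.58 to 50.1.

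Collagen genes went both ways, with 0 of 12 tested past the threshold and 5 of the 12 at an unadjusted p under 0.05, beside 22.7% of all genes tested in either direction. Col1a2, Col3a1 and Col5a1 had their higher values in fetal liver. Col1a2, the alpha 2 chain of collagen I, had signals of 54.7, 110 and 75.2 in marrow and 208, 278 and 225 in fetal liver. The groups did not overlap, and the change of 1.58 ± 0.46 missed the threshold (limma adjusted p = 0.0652; 0.0303 to 0.237 over all alternatives), except under quantile normalization (0.0355), under median centring (0.0303) and without the intensity trend (0.0418). Its partner chain Col1a1 overlapped, at 36.9, 85.0 and 37.0 in marrow and 58.6, 55.6 and 103 in fetal liver (change 0.48 ± 0.57). Col3a1, which forms collagen III, had signals of 16.01, 5.15 and 6.01 in marrow and 68.1, 34.1 and 155 in fetal liver. It was above background on all 3 fetal liver arrays and on no marrow array, at least 2.48-fold higher, and did not pass the filter (adjusted p = 0.0675 with no filter). Col5a1, of the fibril-nucleating collagen V, had signals of 342, 260 and 276 in marrow and 383, 981 and 530 in fetal liver (change 1.0 ± 0.40, limma adjusted p = 0.166).

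Of the basement membrane collagens, Col18a1, whose protein releases endostatin, had signals of 82.5, 63.4 and 67.3 in marrow and 117, 150 and 131 in fetal liver (change 0.87 ± 0.46, limma adjusted p = 0.3). Its probe set 1418237_s_at had 24.5, 91.4 and 15.9 in marrow and 153, 281 and 174 in fetal liver, again without overlap (2.45 ± 0.67, adjusted p = 0.0646 over all kept probe sets). Col4a1 overlapped, at 222, 63.7 and 203 in marrow and 110, 88.7 and 145 in fetal liver. The fibril-associated Col16a1 and Col19a1 and the transmembrane Col17a1 had their higher values in marrow. Col16a1 had signals of 87.8, 250 and 255 in marrow and 68.8, 30.4 and 26.8 in fetal liver, a change of -2.13 ± 0.61 (limma adjusted p = 0.0603; 0.0360 without bone marrow replicate 1, 0.0371 with signals floored at the highest control, and 0.0360 to 0.206 over all alternatives). Col17a1, a hemidesmosome protein, had 50.4, 117 and 109 in marrow and 15.2, 37.9 and 23.8 in fetal liver (limma adjusted p = 0.115). Col19a1 was above background on all 3 marrow arrays, at 63.5, 79.2 and 39.9, and on no fetal liver array, at least 1.88-fold higher in marrow (limma adjusted p = 0.137). Col2a1 and Col5a3 were likewise above background on the 3 marrow arrays alone, at least 1.43-fold and 1.22-fold higher, and did not pass the filter. The Col5a3 signals overlapped between the tissues, at 66.6, 28.0 and 26.8 in marrow and 31.6, 8.54 and 21.4 in fetal liver.

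The members above background on all 3 arrays of one tissue and on no array of the other numbered 4 for marrow (Col19a1, Col2a1, Col5a3 and Mmp23) and 2 for fetal liver (Col3a1 and Adamts1), of 122. Among all named genes these patterns made up 0.956% and 0.478%. Of stromal and fibroblast markers, 11 had a named probe set, 1 of them (Pdgfrb) was above background on all 6 arrays and 4 on no array (Dcn, Lum, Des and Dpt). Their summed signal was 306 to 435 in marrow and 246 to 349.6 in fetal liver, and the highest single value was Thy1 in marrow replicate 2, at 213. Single markers went either way. Acta2 had signals of 17.9, 14.4 and 55.0 in marrow and 68.9, 82.8 and 58.9 in fetal liver, all higher there (limma adjusted p = 0.218). Dcn and Lum, although below background, were also higher on all fetal liver arrays, and Pdgfra on all marrow arrays. Of the 3 stromal markers tested 0 were past the threshold, and 1, Acta2, had an unadjusted p under 0.05. Of endothelial markers 10 had a named probe set, with a summed signal of 1816 to 2275 in marrow and 2419 to 3420 in fetal liver. Kdr, with Tek the brightest of them, rose in fetal liver by 2.20 ± 0.46 (limma adjusted p = 0.0164), 1 of 4 tested. Tek overlapped between the tissues (change 0.055 ± 0.23, limma adjusted p = 0.926), as did Stab2 (-0.20 ± 0.73, 0.912). Of those not tested, Flt1 and Robo4 had higher means in marrow and Cdh5, Cldn5, Emcn and Lyve1 in fetal liver. Plvap was higher on all fetal liver arrays, with a mean of 83.2 ± 12.9 (SD, n = 3) against 36.2 ± 8.20 (limma adjusted p = 0.219). Cdh5 was above background on 1 marrow and 2 fetal liver arrays, Cldn5 on 1 and 0, and Emcn on no array. Hepatoblast markers summed to 609 to 1142 in marrow and 967 to 4179 in fetal liver, and 2 of 8 tested rose there, Dlk1 by 3.82 ± 0.60 (limma adjusted p = 0.00419) and Apoa1 by 2.51 ± 0.67 (0.0481). Krt18 was higher on all marrow arrays (-0.89 ± 0.44, limma adjusted p = 0.261), and Ttr changed by -0.21 ± 0.56. The changes of Afp, Alb, Apoa2 and Hnf4a were positive and not past the threshold. Afp alone reached 2793 in fetal liver replicate 2, and its values overlapped between the tissues. Erythroid markers summed to 6407 to 11242 and 15447 to 30479, with 4 of 8 tested risen in fetal liver. Macrophage markers summed to 1985 to 3883 and 358 to 516, with 3 of 6 tested fallen in fetal liver. These were Csf1r, the brightest of the list, Cd163 and Vcam1, while C1qb, Cd68 and Mrc1 overlapped between the tissues. Timd4, not tested, alone had its higher mean in fetal liver, at 39.3 against 18.4. Osteoblast markers summed to 116 to 209 and 165 to 207, with 0 of 2 past the threshold. The part of these cells in the results was not tested.

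Among the secreted ADAMTS proteases, Adamts1 had signals of 27.0, 16.3 and 2.89 in marrow, all below background, and 213, 51.0 and 102 in fetal liver, all above it. ADAMTS1 cleaves the proteoglycans aggrecan and versican. It was at least 3.55-fold higher in fetal liver, with a fitted change of 2.84 ± 0.78 that just missed the threshold (log2, SE, limma adjusted p = 0.0518; 0.0303 to 0.168 over all alternatives). It was past it in 6 of 17 alternatives, among them quantile normalization (0.0472), median centring (0.0303) and without bone marrow replicate 1 (0.0485). Adamts10, whose protein binds fibrillin, had signals of 621, 1836 and 561 in marrow and 368, 385 and 293 in fetal liver, without overlap (change -1.31 ± 0.45, limma adjusted p = 0.107). Its second probe set, 1441309_at, gave -1.25 ± 0.39, with the highest signal again in marrow replicate 2. ADAMTS3 removes the amino propeptide of fibrillar procollagen. Adamts3 had signals of 176, 162 and 180 in marrow and 378, 259 and 256 in fetal liver (change 0.75 ± 0.39, limma adjusted p = 0.288). Adamtsl5 ranged from 49.1 to 207 in marrow and from 76.3 to 162 in fetal liver, and Adamts6 from 37.7 to 51.6 and from 36.8 to 68.1.

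**Figure D4:**
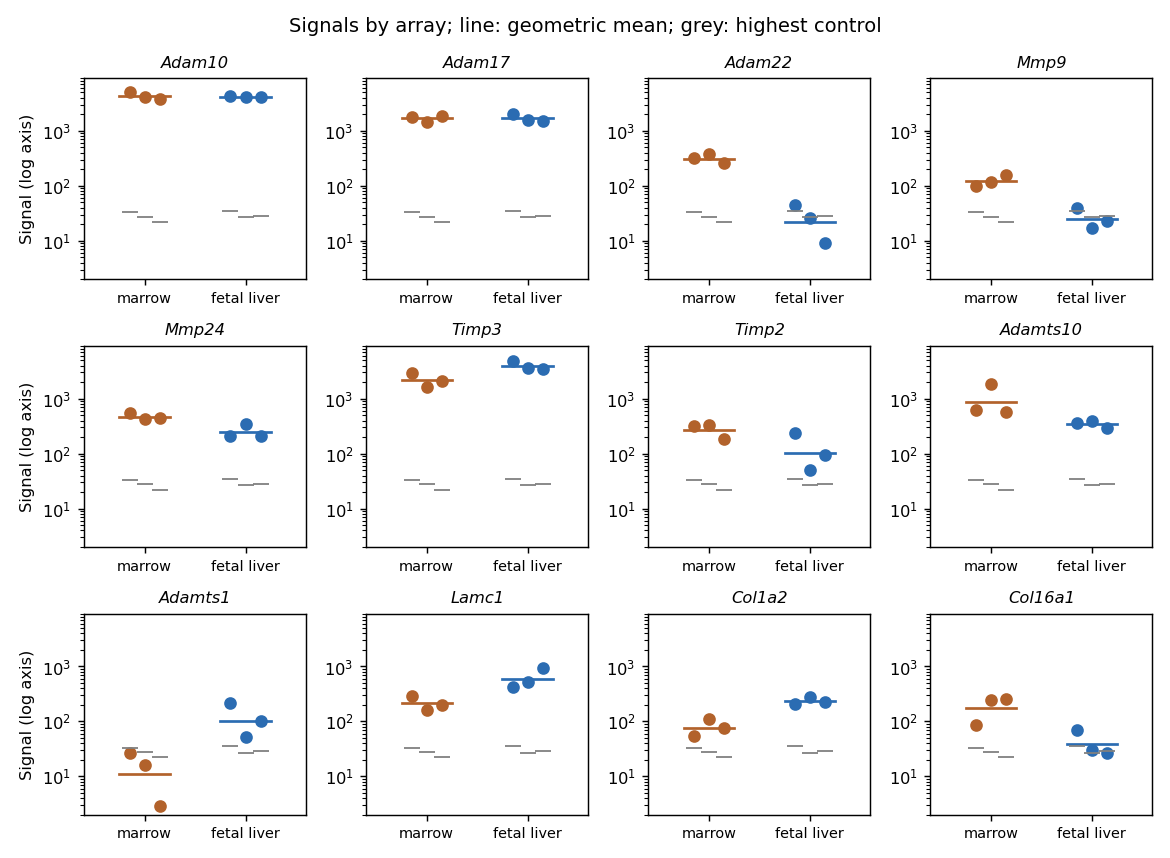
Signal on each array (log axis) of 12 genes, with 3 points and their geometric mean (line) per tissue; grey dashes are the highest bacterial control of each array. Adam10 and Adam17 overlap between the tissues, Adam22 and Mmp9 are higher on all marrow arrays, and Timp3, Lamc1, Col1a2 and Adamts1 on all fetal liver arrays.

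Other matrix genes were taken from lists written from general knowledge. The counts of these lists, and of the cell type lists above, stand beside 3.01% of all genes tested risen and 4.76% fallen in fetal liver. Of 29 tested matrix glycoproteins and proteoglycans 4 rose and 3 fell in fetal liver; leaving out fetal liver replicate 1, 2 or 3 in turn brought the 4 to 3, 2 and 2, and the 3 became 2 without each array other than fetal liver replicate 3 and 1 without the intensity trend. Those that rose were Thbs1, thrombospondin, by 4.74 ± 0.29 (limma adjusted p = 2.56e-05), Sparc, a collagen-binding protein (3.33 ± 0.77, 0.0269), Emilin2 (1.75 ± 0.35, 0.0139) and Ltbp1, which anchors latent TGF-beta to matrix (1.52 ± 0.26, 0.00706). Those that fell were the proteoglycan Bgn (-3.36 ± 0.64, 0.0106), Tgfbi (-2.62 ± 0.70, 0.0482) and Srgn, the granule proteoglycan serglycin (-1.02 ± 0.15, 0.00297). The calls of Sparc and Emilin2 were lost without fetal liver replicate 2 (limma adjusted p = 0.101 and 0.0628) and replicate 3 (0.07 and 0.0727), and that of Sparc also without replicate 1 (0.0852) and without the intensity trend (0.07), which ended the call of Srgn as well (0.0556). The call of Tgfbi was lost in 9 of 17 alternatives (adjusted p up to 0.137).

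Of 16 tested genes of collagen processing and crosslinking 0 rose and 1 fell, P3h3, a collagen prolyl hydroxylase (-2.94 ± 0.58, limma adjusted p = 0.0123; 0.052 without fetal liver replicate 2). Of 19 matrix receptors 0 rose and 3 fell, beside the same 3.01% and 4.76% of all genes tested. These were Itga8, an integrin chain (-3.05 ± 0.44, limma adjusted p = 0.00273; 0.0605 after averaging its probe sets), the collagen-binding inhibitory receptor Lair1 (at least 12.5-fold lower, 0.000206) and the thrombospondin receptor Cd47 (-0.67 ± 0.14, 0.0191). The call of Cd47 was lost in 6 of 18 alternatives, which left 2. These were leaving out bone marrow replicate 1 or 2 (limma adjusted p = 0.0571 and 0.0532) or fetal liver replicate 2 or 3 (0.0946 and 0.109), the fit without the intensity trend (0.152) and median centring (0.0928), under which 4 receptors rose. Of 16 other pericellular proteases and inhibitors 1 rose, the lysosomal cathepsin Ctsl (1.70 ± 0.35, limma adjusted p = 0.0155; 0.0655, 0.0594 and 0.0568 without fetal liver replicates 1, 2 and 3). In this list 5 fell, which became 3 without bone marrow replicate 3 and without fetal liver replicate 3. It was 4 without bone marrow replicate 1, bone marrow replicate 2 or fetal liver replicate 2. They were Ctss (-5.90 ± 0.75, 0.00123), the granule proteases Elane (-5.46 ± 1.11, 0.0149), Ctsg (-5.35 ± 0.80, 0.00297) and Prtn3 (-3.06 ± 0.54, 0.00791), and Furin, which activates many pro-metalloproteases (-1.46 ± 0.34, 0.0268). The call of Elane was lost without bone marrow replicates 1 and 3 and fetal liver replicate 3 (limma adjusted p = 0.0551, 0.0538 and 0.0529) and in the fit without the intensity trend (0.0699). That of Furin was lost without bone marrow replicates 2 and 3 (0.0678 and 0.0754) and fetal liver replicates 2 and 3 (0.113 and 0.106). Elane is also in the granulocyte list, whose values stand beside Mmp9 above.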

How the data were processed

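The authors deposited 1 linear intensity per probe set and array, made by MAS5 according to the submitters' processing notes. Its version, scaling target and filters are not stated in what was used here. On each array the mean signal trimmed by 2% at each end was 500, so arrays were used without further scaling. Of 45101 probe sets 64 were controls, and 34945 others had 1 gene symbol in the platform annotation, 932 several and 9160 none. No array build is named, so no gene coordinates are given for the measured probe sets.

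Signals became log2(signal + 2.87), the 10th percentile of all signals. A filter at the 40th percentile of mean log2 signal kept 27022 probe sets. They were reduced to the 1 of highest mean per gene and fitted in limma 3.58.1 under R 4.3.3 (lmFit, eBayes with an intensity trend); Benjamini-Hochberg adjustment ran over 11625 genes. A change is the fetal liver mean less that of bone marrow, with its SE from the fit. Alternatives changed the offset, normalization, filter, intensity trend, probe set rule, floor or replicate block, or left out an array; testing every kept probe set and a common control level were added after seeing the data. Leaving out an array kept each gene's probe set. The fit was tested on simulated data. The members and lists were chosen with earlier results of these data known. The text gives values for members past the threshold, above background in 1 tissue alone, or tested and among the 4 brightest of a family. Adamts16 is given only by its changes of sign. Members above background on all 6 arrays are at least named. Chosen after their values were seen were tested members without overlap, members called with no filter, and single untested ADAM genes. From each list, the 4 called genes with the largest change are given by rule, and the other called genes after their values were seen. Figures used matplotlib 3.10.9.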

Additional observations from a re-analysis of the deposited data

How the results depend on the processing

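Of 11625 genes 350 rose and 553 fell in fetal liver; median centring gave 897 for the former (marrow held 32.8% of calls, against 61.2%) and the fit without the intensity trend 166. Leaving out 1 array gave 117 to 313 and 316 to 439. The count of members higher in fetal liver, 0, became 1 with an offset of 16 (Adamts1), without the intensity trend (Col1a2) and without _x_at and _s_at probe sets (Adamts1), 2 with the mean of probe sets and with the replicate block, 3 under quantile normalization and 4 under median centring, and was 0 to 2 with 1 array left out. The count higher in marrow, 2, became 1 under quantile normalization (Adam22), 0 of 11 members left by the filter at the 60th percentile and 1 with the replicate block, and was 1 to 2 with 1 array left out. It was 3 with no filter (Adam22, Mmp23 and Mmp8), with a filter on signal above background on at least 3 arrays (Adam22, Mmp23 and Mmp9) and with signals floored at the highest control (Adam22, Col16a1 and Mmp9). With the replicate number as a block, Timp3 (adjusted p = 0.0187) and Adamts1 (0.0353) were past the threshold and Mmp9 (0.0529) was not, while 522 and 688 genes were called; same-numbered arrays deviated together at r = 0.15, -0.0225 and 0.0809, so the numbers were not taken to pair them. Against the highest control of all 6 arrays, chosen after seeing the data, 20 members were above background on all arrays, as before, and 47 in place of 38 on no array.

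Among members not past the threshold some changed sign. Under median centring and quantile normalization Adamts16 became 0.20 and 0.15, Adamtsl5 0.059 and 0.039 and Col20a1 0.21 and 0.22; Adam10 became 0.21 under median centring, Adam17 -0.023 under quantile normalization and Adam15 0.20 with the mean of probe sets. With 1 array left out, Adam10 ranged from -0.14 to 0.076, Adam15 from -0.88 to 0.21, Adam17 from -0.12 to 0.088, Adamts16 from -0.77 to 0.86, Adamts6 from -0.25 to 0.17, Adamtsl5 from -0.84 to 0.16, Col20a1 from -0.29 to 0.092 and Mmp17 from -0.67 to 1.25. The causes were not tested. With 3 arrays per tissue the number of arrays limits precision.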
